A study of Homo sapiens with 9 samples.

Results

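The genes described here are 36 members of the p53 and DNA damage response, fixed by name, of 19722 genes with a named probe on the array. They fall into 27 genes listed as p53 targets and 9 damage sensors, checkpoint kinases and repair mediators. All 36 members were on the array, with 52 probes in all, and each gene was read from its brightest probe over the 9 arrays.

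RNA came from ALL-SIL, an established T cell acute lymphoblastic leukemia (T-ALL) line grown in culture, after electroporation with a control siRNA or with either of 2 siRNAs against *PHF6*. The labels call these control siRNA, *PHF6* siRNA1 and *PHF6* siRNA2, and no group carried another agent. Each group had 3 replicates, which the series describes as biological and independent, collected 96 h after electroporation, although a free-text description gives 72 h. Each sample was hybridized to a one-colour Agilent array of a custom design. The groups are a model of transient mRNA reduction in 1 leukemia line, and no group was exposed to a DNA-damaging agent. *PHF6*, mutated in T-ALL, encodes a chromatin-associated protein with PHD-like zinc fingers. One *PHF6* siRNA was a single duplex and the other a pool of duplexes, and the sources used here do not give which of them is siRNA1.

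The transcription factor p53 is held low by the ubiquitin ligase MDM2 and its relative MDM4. When DNA breaks or replication stalls, the kinases ATM and ATR and their effectors CHEK2 and CHEK1 modify p53 and its inhibitors, and p53 then binds response elements in its target genes. Those targets arrest the cell cycle, repair DNA, adjust metabolism or promote cell death, and several of them, *MDM2* among them, feed back on p53 itself. In developing thymocytes this pathway guards against unrepaired breaks left by T cell receptor rearrangement.

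The p53 response element is built from a 10-base decamer, usually present as a pair. A script searched for this decamer, which is its own reverse complement and so covers both strands, in RefSeq promoter windows of build GRCh38.p14 running from 250 bases before to 50 bases after each gene start. Overlapping matches were counted. Of 27 p53 targets, 22 had a window (not *GADD45A*, *PHLDA3*, *RRM2B*, *TNFRSF10B* or *TP53INP1*), and 7 of these held the decamer, 31.8%. No window of the 9 damage sensors held it. Over all windows, 2329 of 35116, or 6.63%, held it, and over genes with a window 8.06% did. The 30-base stretches around the matches are shown because they separate the targets with a decamer next to the gene start from the others. Capitals mark the decamer, and each sequence runs 5′ to 3′ on the strand of the gene.

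AEN: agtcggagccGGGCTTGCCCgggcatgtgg
DDB2: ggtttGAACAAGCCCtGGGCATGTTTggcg
FAS: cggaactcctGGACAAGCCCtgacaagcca
FDXR: gggcaggagcGGGCTTGCCCtgcggagcag
PLK2: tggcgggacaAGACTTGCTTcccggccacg
RPS27L: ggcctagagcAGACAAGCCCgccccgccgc
SESN1: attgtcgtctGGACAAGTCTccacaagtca

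The AEN stretch lies at chr15:88621296-88621325 on the plus strand, DDB2 at chr11:47214974-47215003 on the plus strand and FAS at chr10:88991299-88991328 on the plus strand. FDXR lies at chr17:74872986-74873015, PLK2 at chr5:58460199-58460228, RPS27L at chr15:63157517-63157546 and SESN1 at chr6:109009018-109009047, all on the minus strand. *DDB2*, which encodes the damage-binding subunit of nucleotide excision repair, was the only member whose window held a pair of decamers within 13 bases of each other, an arrangement found in 10 of all 35116 windows. A match describes these letters and is not evidence of binding, and elements further from the start lie outside the windows.

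Levels are given on the generalized log2 scale of the VSN model, on which 1 unit is close to a doubling for bright probes but not for dim ones. Genes entered the test when at least 3 arrays measured their probe well above background. A change was called at an adjusted p under 0.05 in limma, with the replicate number as a block and Benjamini-Hochberg adjustment over all 33586 tested probes. The targeted gene came first. *PHF6* stood at 11.07, 11.16 and 10.86 in control replicates 1 to 3, at 9.39, 9.69 and 9.13 with siRNA1 and at 9.19, 9.28 and 9.14 with siRNA2. Every siRNA array lay below every control array, and the difference was -1.72 (SE 0.09, adjusted p = 9.01e-05 in limma) for both siRNAs together.

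The labelled lineage was checked on marker genes. All 9 T lineage markers were well above background on all 9 arrays, among them the T-ALL oncogene *TLX1*. Their mean level was 12.52 to 12.83 in control arrays, 12.41 to 12.72 with siRNA1 and 12.43 to 12.69 with siRNA2. One of them, the T cell surface protein gene *CD7*, was called lower, by -0.75 (adjusted p = 0.013 in limma). That is 11.1% of the 9 markers beside 2.32% of all genes. The thymocyte marker *CD1A* differed as much the other way, at 0.71, without passing (adjusted p = 0.0712). Of the 9 markers 3 had an unadjusted p under 0.05, 33.3% beside 19.1% of all genes. Of 5 B lineage markers 2 were well above background on every array, with list means of 6.80 to 6.86 in control arrays, 6.84 to 6.96 with siRNA1 and 6.67 to 6.79 with siRNA2. Of the myeloid markers 3 of 5 were well above background on every array, with list means of 5.86 to 6.19 in control arrays, 5.73 to 6.05 with siRNA1 and 5.89 to 6.05 with siRNA2. Of the erythroid markers 3 of 4 were, and the globin gene *HBB* on none, with list means of 7.18 to 7.44, 7.24 to 7.53 and 7.06 to 7.41 in the same order of groups. The part of any of these cell markers in the results below was not tested. Replicates 1 and 2 of each group were on slide 1 and replicate 3 of each group on slide 2, so that slide and group were balanced. No spot was saturated on any array.

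Of 32 members tested, *TP53INP1*, which encodes a p53-induced stress protein linked to cell death and autophagy, was the only one called for both siRNAs together, and it was higher. That is 1 of 32, 3.12%, beside 2.32% of all 14677 genes tested and 1.14% that were called higher, so the members' share was near that of all genes. That share rests on the replicate block and on single arrays. Of 33586 probes, 915 were called for both siRNAs together, 3 without the block, 17 with the slide as the block, 54 without control replicate 1 and 55 without control replicate 2. In these bulk cultures fewer cells of one kind and less RNA per cell cannot be told apart. The median change was -0.04 over the 23 tested p53 targets, with 9 above 0 and 14 below, and -0.01 over the 9 damage genes, with 3 above 0 and 6 below. Over all 14677 genes tested the median was -0.03, with 6141 above 0 and 8536 below. At an unadjusted p under 0.05 there were 6 members, namely *TP53INP1*, *TP53I3*, *ATM*, *MDM4*, *GADD45B* and *PLK3*, 18.8% beside 19.1% of all genes. The 95% interval of the change lay within 0.5 units of 0 for 26 of the 32 members. The spread between the 3 control arrays, from lowest to highest, was larger than the change itself for 28 of the 32. The called *TP53INP1* was among them, at 1.24 against 0.69. That spread holds the replicate differences that the block takes out of the change. Neither of these counts was made over all genes.

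**Figure D1:**
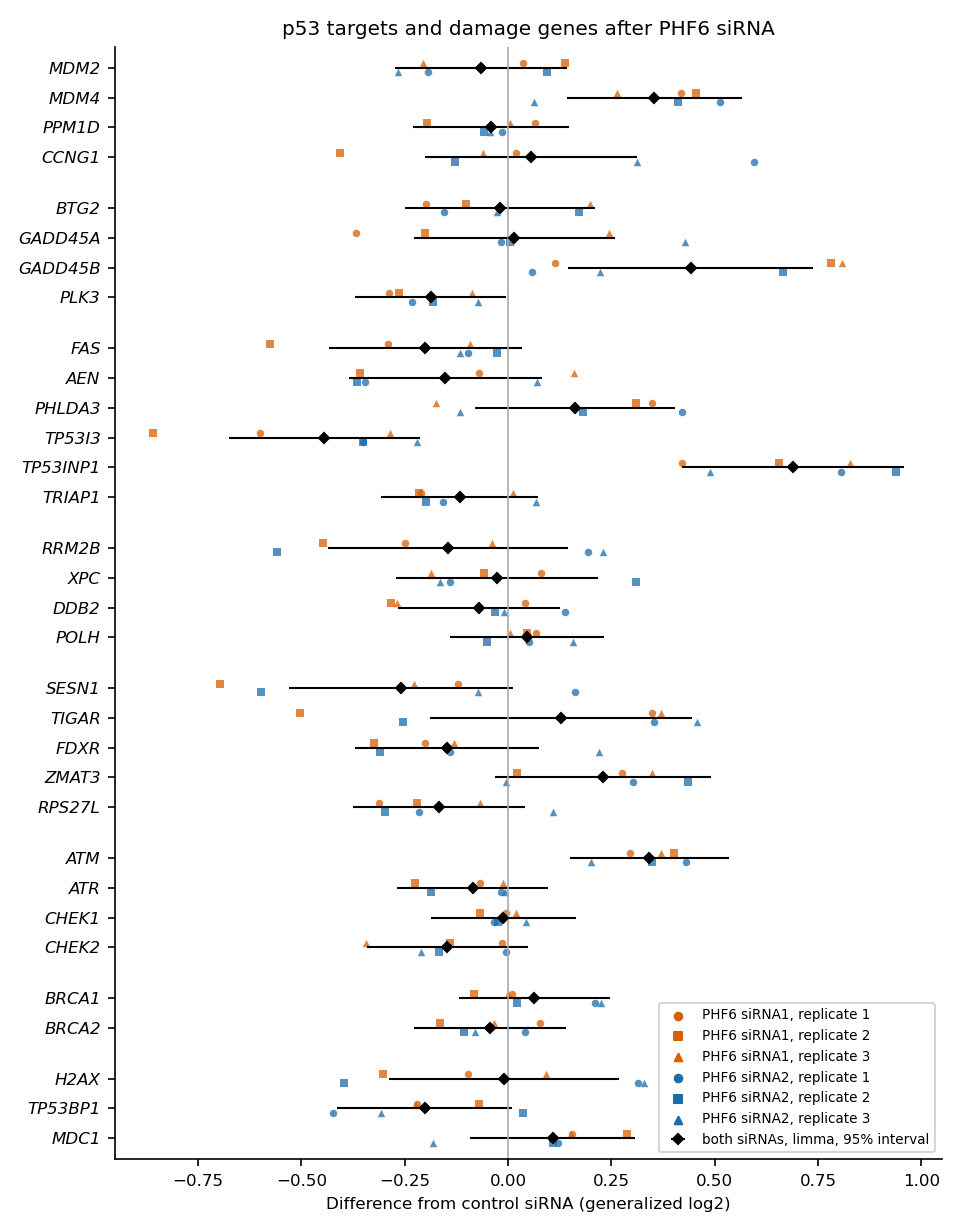
Difference from the control siRNA on the generalized log2 scale (x axis) for the 32 members tested (y axis, grouped by role, damage genes from ATM down). Coloured points are the 6 siRNA arrays, each minus the control array of its replicate number, and black diamonds with bars are the limma estimate for both siRNAs with its 95% interval. TP53INP1, at 0.69, lies furthest to the right and TP53I3, at -0.44, furthest to the left.

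*TP53INP1* stood at 9.26, 10.50 and 9.85 in control replicates 1 to 3, at 9.68, 11.16 and 10.68 with siRNA1 and at 10.07, 11.44 and 10.34 with siRNA2. Each siRNA array was higher than the control array of its own replicate, 6 of 6, while the groups overlapped and replicate 2 was the highest array of each group. The change was 0.69 (SE 0.12, 95% interval 0.42 to 0.96), or 1.61-fold, with an adjusted p = 0.0242 in limma. The two-sided exact permutation of the control position within replicates gave p = 0.037, unadjusted, the smallest that its 27 arrangements allow. *MDM4*, *GADD45B*, *PLK3*, *TP53I3*, *ATM*, *ATR* and *CHEK2* reached the same value, so it does not set *TP53INP1* apart. The share of all genes that reached it was not counted. A second probe of *TP53INP1* rose by 0.75 (adjusted p = 0.0314 in limma). Within slide 1 the change was 0.71 (adjusted p = 0.031), and on slide 2, with 1 array a group, siRNA1 lay 0.83 and siRNA2 0.49 above control.

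The *TP53INP1* call was lost in 12 of 24 alternative analyses, all of which kept its direction. Without replicate 1 its adjusted p in limma was 0.127 and without replicate 2 it was 0.131. It was also lost on leaving out control replicate 1 (0.132), control replicate 2 (0.113), siRNA2 replicate 1 (0.0643) or siRNA1 replicate 2 (0.0606), and without the replicate block (0.744). The other losses came with other normalizations, no filter on dim probes or another block.

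**Figure D2:**
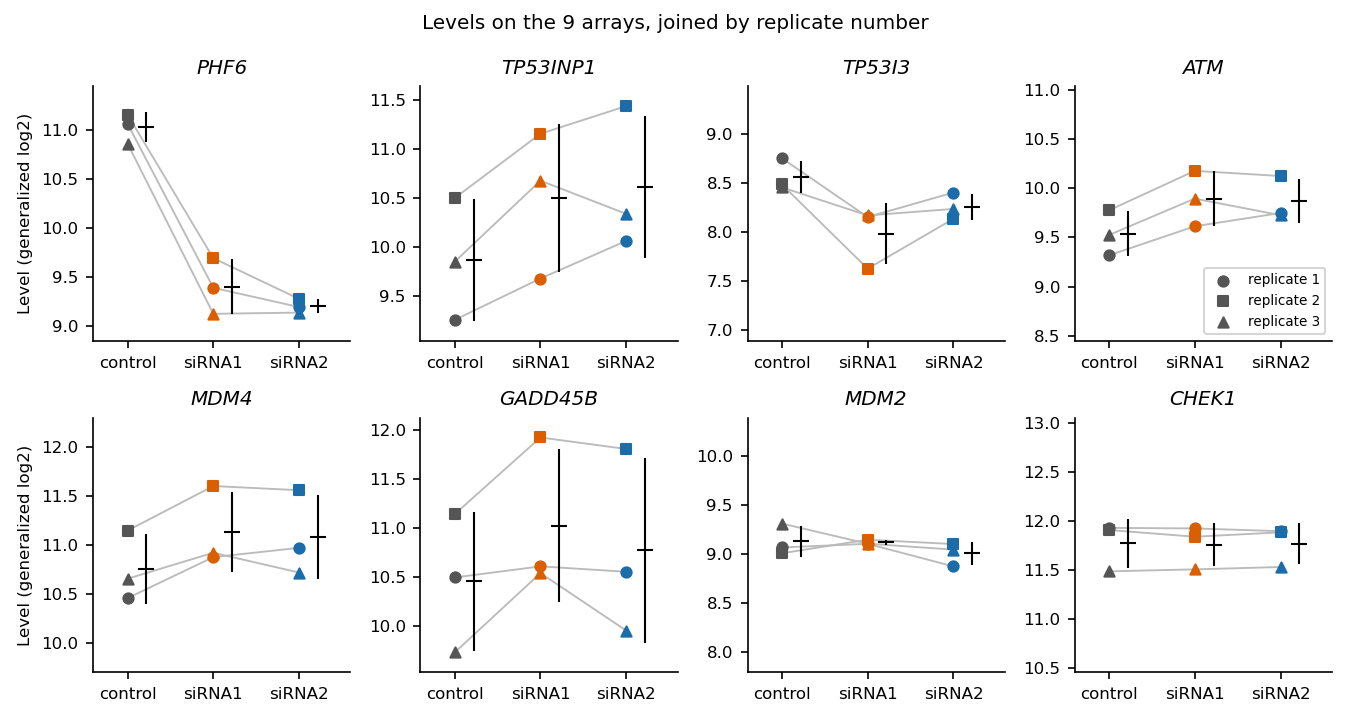
Level on the generalized log2 scale (y axis) of PHF6 and 7 members in the 3 groups (x axis), with one symbol for each replicate and grey lines joining arrays of the same replicate number. Black marks give the mean and SD of the 3 arrays, and all panels span the same number of units. PHF6 falls in every replicate, TP53INP1 rises in every replicate from different starting levels, and the lines of CHEK1 run nearly flat.

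Among the members that act on p53 itself, *MDM4*, encoding the MDM2-related inhibitor of p53, stood at 10.46, 11.15 and 10.66 in control replicates, at 10.88, 11.60 and 10.92 with siRNA1 and at 10.97, 11.56 and 10.72 with siRNA2. It was above its own control on 6 of 6 arrays, but the groups overlapped and the difference of 0.35 (SE 0.09) did not pass (adjusted p = 0.0748 in limma). Its second probe gave 0.29. *MDM2*, the ligase that degrades p53 and a classical p53 target, stood at 9.07, 9.01 and 9.31 in control replicates, at 9.11, 9.15 and 9.11 with siRNA1 and at 8.88, 9.11 and 9.05 with siRNA2. Its difference was -0.07 (95% interval -0.27 to 0.14, adjusted p = 0.722 in limma), while its 2 dimmer probes gave 0.09 each, so the probes disagreed in sign. The phosphatase gene *PPM1D* (-0.04) and the cyclin G1 gene *CCNG1* (0.06) did not pass either.

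Of the 6 cell cycle arrest genes, *CDKN1A*, which encodes the kinase inhibitor p21, and the polo-like kinase gene *PLK2* (3.81 to 4.42) were not well above background on any of the 9 arrays. *CDKN1A* stood at 4.37, 4.57 and 4.74 in control replicates, at 4.23, 4.35 and 4.48 with siRNA1 and at 4.37, 4.61 and 4.64 with siRNA2. The median of the arrays' negative control spots, put on the same scale, was 3.62 to 3.94. *TNFRSF10B*, a death receptor gene, at 3.17 to 4.57, and *SPATA18*, a mitochondrial quality control gene, at 3.73 to 4.33, were the other members not well above background on any array. For these 4 genes the arrays give only an upper bound in every group, and no fold change is given.

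**Figure D3:**
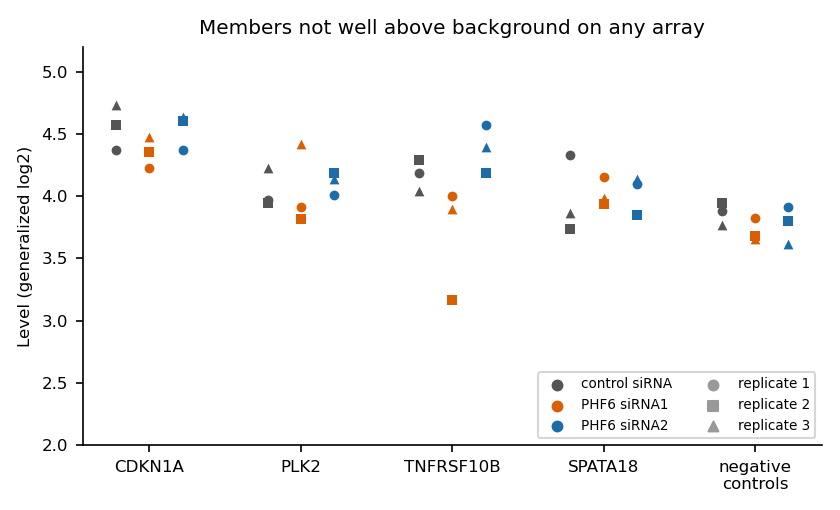
Level on the generalized log2 scale (y axis) of the 4 members that were not well above background on any array, beside the median of the negative control spots of each array (x axis). Colours give the siRNA group and symbols the replicate number. CDKN1A lies between 4.23 and 4.74 in all groups, and the negative controls lie between 3.62 and 3.94.

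*GADD45B*, a stress-inducible growth arrest gene, stood at 10.50, 11.14 and 9.73 in control replicates, at 10.61, 11.93 and 10.54 with siRNA1 and at 10.56, 11.81 and 9.96 with siRNA2. It was above its own control on 6 of 6 arrays, with widely overlapping groups, and its difference of 0.44 (SE 0.13) did not pass (adjusted p = 0.0967 in limma). Its relative *GADD45A* gave 0.02 and the antiproliferative gene *BTG2* gave -0.02. *PLK3*, another stress-responsive polo-like kinase gene, was below its own control on 6 of 6 arrays, at -0.19 (adjusted p = 0.219 in limma).

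Among the death genes, *TP53I3*, encoding an oxidoreductase associated with oxidative stress, was the only member whose 6 siRNA arrays all lay below its 3 control arrays. It stood at 8.76, 8.49 and 8.46 in control replicates, at 8.16, 7.63 and 8.17 with siRNA1 and at 8.41, 8.14 and 8.24 with siRNA2. The difference of -0.44 (SE 0.10) did not pass (adjusted p = 0.054 in limma), and its second probe gave -0.29. This pattern was found in 2.6% of all genes, and the opposite one, in 1.13% of all genes, was found in no member. *FAS*, the death receptor gene, was below its own control on 6 of 6 arrays at -0.20 (adjusted p = 0.298), with 3 probes between -0.20 and -0.17. The nuclease gene *AEN* (-0.15), the AKT inhibitor gene *PHLDA3* (0.16) and the survival factor gene *TRIAP1* (-0.12) did not pass.

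Among the targets that serve DNA repair and nucleotide supply, the ribonucleotide reductase subunit gene *RRM2B* gave -0.15, the damage recognition genes *XPC* and *DDB2* gave -0.03 and -0.07, and *POLH*, the translesion polymerase gene, gave 0.05. Of the targets in metabolism, redox balance and RNA, the sestrin gene *SESN1* gave -0.26, the mitochondrial reductase gene *FDXR* -0.15 and the ribosomal protein paralogue gene *RPS27L* -0.17. The glycolysis regulator gene *TIGAR* gave 0.13 and the RNA-binding protein gene *ZMAT3* 0.23. None of these 9 genes was called, and their adjusted p in limma was 0.249 or higher.

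The 6 tested members with a decamer in the window shown above, *AEN*, *DDB2*, *FAS*, *FDXR*, *RPS27L* and *SESN1*, all had a difference below 0. It ranged from -0.26 to -0.07 with a median of -0.16, none was called, and the 95% interval of each included 0. Only *FAS* was below its own control on 6 of 6 arrays, and *DDB2* stood at 0.03 with siRNA2. Each of the 6 kept its sign in all 24 alternatives, which reuse the same arrays and so are no independent support. Among all 891 tested genes with a decamer in the window, 515, or 57.8%, had a difference below 0, beside 8536 of all 14677 genes tested. The median of the 891 was -0.03 and 1.35% of them were called. With siRNA1 the median of the 6 was -0.21 and with siRNA2 it was -0.11.

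The 9 damage genes had no call. *ATM*, the kinase that responds to double-strand breaks, stood at 9.32, 9.78 and 9.53 in control replicates, at 9.61, 10.18 and 9.90 with siRNA1 and at 9.75, 10.13 and 9.73 with siRNA2. It was above its own control on 6 of 6 arrays with overlapping groups, and its difference of 0.34 (SE 0.09) did not pass (adjusted p = 0.0647 in limma). A dimmer probe of *ATM* gave 0.10 (adjusted p = 0.649 in limma). *ATR*, the kinase that responds to stalled replication, was below its own control on 6 of 6 arrays by a small amount (-0.09), while its dimmer probe gave 0.15.

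*CHEK1*, the checkpoint kinase downstream of ATR, stood at 11.93, 11.91 and 11.49 in control replicates, at 11.92, 11.84 and 11.51 with siRNA1 and at 11.90, 11.88 and 11.53 with siRNA2. Its difference was -0.01 (95% interval -0.19 to 0.16, adjusted p = 0.952 in limma). *CHEK2*, the kinase downstream of ATM, was below its own control on 6 of 6 arrays at -0.15 (adjusted p = 0.356). The recombination genes *BRCA1* and *BRCA2* gave 0.06 and -0.04. *H2AX*, the histone variant phosphorylated around breaks, gave -0.01, and the mediators that bind that chromatin, *TP53BP1* and *MDC1*, gave -0.20 and 0.11.

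Counted over all 32 members, 4 were above their own control on 6 of 6 arrays, 12.5% beside 7.54% of all genes, and 5 were below it, 15.6% beside 13.9% of all genes. Of 14 members with more than 1 tested probe, 10 had probes of the same sign for both siRNAs together. The 4 others were *ATR*, *CHEK2*, *MDM2* and *POLH*. The share of all genes with probes of the same sign was not counted.

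The siRNAs were then taken one at a time. They share their control arrays, so their agreement is no independent check. With siRNA1 no member was called in limma (0.838% of genes were), and 8 members, 25% beside 16.9% of all genes, had an unadjusted p under 0.05. The largest differences were 0.63 for *TP53INP1* (adjusted p = 0.0657), -0.58 for *TP53I3* (adjusted p = 0.058) and 0.57 for *GADD45B* (adjusted p = 0.1). With siRNA2 *TP53INP1* was the only member called (1.53% of genes were), at 0.74 (SE 0.14, adjusted p = 0.0381 in limma), or 1.67-fold. That call was lost on leaving out any 1 of the 3 control arrays, siRNA2 replicate 1 or 2 or siRNA1 replicate 2. *TP53I3* then gave -0.31, *MDM4* 0.33 and *ATM* 0.33. The sign was the same under both siRNAs for 26 of the 32 members, a share not counted over all genes.

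The siRNAs were compared directly in the same fit. No member differed between siRNA2 and siRNA1 in limma (0.0341% of genes did), and 2 members, 6.25% beside 9.01% of all genes, had an unadjusted p under 0.05. *CCNG1* was higher with siRNA2 by 0.41 (95% interval 0.11 to 0.70, adjusted p = 0.415). It stood at 11.16, 11.14 and 10.89 in siRNA1 replicates and at 11.74, 11.41 and 11.26 in siRNA2 replicates. These did not overlap, and the share of all genes with such a separation was not counted. The control replicates, at 11.14, 11.54 and 10.95, spanned much of that range. *TP53I3* was 0.27 higher with siRNA2 (95% interval 0.01 to 0.54, adjusted p = 0.509). For *TP53INP1* the siRNAs differed by 0.11 (95% interval -0.20 to 0.42), so a difference of up to 0.42 in favour of siRNA2 was within the interval.

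More members differed between culture replicates than between siRNA groups. Of the 32 members, 15 differed between replicates 1, 2 and 3 at an adjusted p under 0.05 in limma's moderated F test, 46.9% beside 33.8% of all genes, and they comprised 11 p53 targets and 4 damage genes. *GADD45B* averaged 10.55, 11.63 and 10.08 over the 3 arrays of replicates 1, 2 and 3, and *TP53INP1* averaged 9.67, 11.03 and 10.29. These ranges, 1.55 and 1.36 units, exceed the siRNA differences of the same genes.

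Replicate 1 was highest in 7 of the 15 members that differed, and in 5 of those replicate 3 was lowest. *BRCA1* stood at 11.31, 11.32 and 11.52 in replicate 1 (control, siRNA1 and siRNA2 in that order), at 11.11, 11.03 and 11.13 in replicate 2 and at 10.77, 10.77 and 10.99 in replicate 3. *BRCA2* stood at 9.16, 9.24 and 9.20, then at 9.09, 8.93 and 8.99, then at 8.80, 8.77 and 8.72 in the same order. The replicates of both genes did not overlap. For this and for the like separations of replicates below, the share of all genes was not counted. *DDB2* stood at 13.34, 13.38 and 13.48 in replicate 1, at 13.22, 12.93 and 13.19 in replicate 2 and at 12.92, 12.65 and 12.91 in replicate 3. *FAS* stood at 8.22, 7.93 and 8.12 in replicate 1, at 7.74, 7.17 and 7.71 in replicate 2 and at 7.57, 7.48 and 7.46 in replicate 3. Both were higher in replicate 1 than in either other replicate on every array. *FDXR*, at 13.46, 13.26 and 13.32 in replicate 1, at 12.94, 12.62 and 12.63 in replicate 2 and at 12.81, 12.68 and 13.03 in replicate 3, was likewise highest in replicate 1. *CHEK1*, whose values are given above, averaged 11.92, 11.88 and 11.51.

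*MDM4* (means of 10.77, 11.44 and 10.77 in replicates 1 to 3) and *ATM* (9.56, 10.03 and 9.72) were highest in replicate 2. *AEN* stood at 7.82, 7.75 and 7.47 in replicate 1, at 7.68, 7.32 and 7.31 in replicate 2 and at 8.28, 8.44 and 8.35 in replicate 3. *TRIAP1* stood at 10.18, 9.97 and 10.02 in replicate 1, at 10.23, 10.02 and 10.03 in replicate 2 and at 10.50, 10.51 and 10.56 in replicate 3. Replicate 3 of both lay above all other arrays. *SESN1* stood at 8.09, 7.97 and 8.26 in replicate 1, at 8.14, 7.44 and 7.54 in replicate 2 and at 8.30, 8.07 and 8.22 in replicate 3. *BTG2* stood at 12.15, 11.95 and 11.99 in replicate 1, at 12.41, 12.31 and 12.58 in replicate 2 and at 12.33, 12.53 and 12.30 in replicate 3. *SESN1* was low in replicate 2 with either siRNA but not with control, and *BTG2* was low in replicate 1. *PLK3* stood at 10.21, 9.92 and 9.98 in replicate 1, at 9.85, 9.59 and 9.67 in replicate 2 and at 9.92, 9.83 and 9.85 in replicate 3.

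With replicates 1 and 2 alone, which share a slide, 6 members differed, with replicates 2 and 3 alone 7 did, and with replicates 1 and 3 alone 15 did. Of 33586 probes, 2073, 6534 and 10953 differed in the same order, beside 11863 with all replicates, so the count over all probes moved as well. The member count was 10 on leaving out replicate 1 of siRNA1 (7249 probes). It was 9 on leaving out replicate 3 of siRNA1 (6336 probes) and 9 on leaving out replicate 3 of siRNA2 (6062 probes). Replicate 3 and the second slide cannot be told apart.

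**Figure D4:**
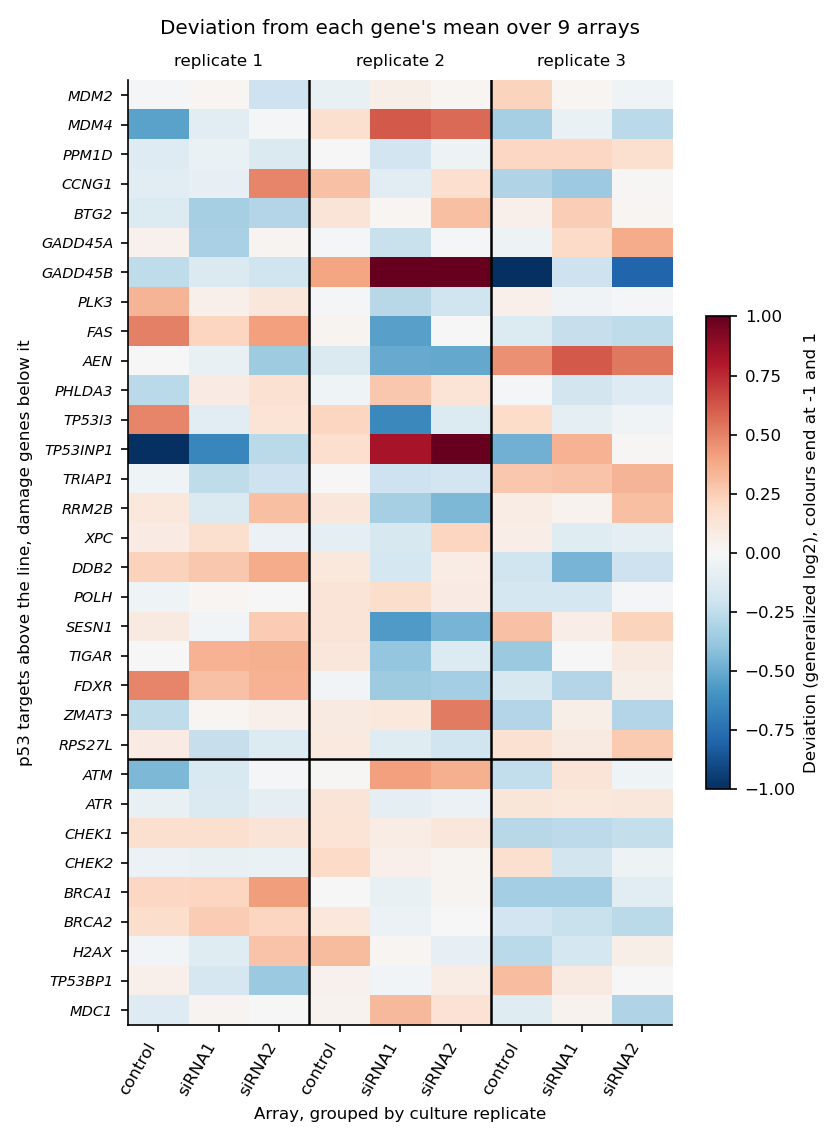
Deviation of each array from the gene's mean over the 9 arrays, on the generalized log2 scale (colour, red above and blue below the mean), for the 32 members (rows) and the arrays ordered by replicate number (columns). Within replicate 2 all 3 columns of GADD45B, TP53INP1 and MDM4 are red, the control column included, and those of AEN are blue.

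Replicate 2 gave the highest array of each of the 3 groups in 8 members, 25% beside 10.3% of all genes. They were *TP53INP1*, *MDM4*, *GADD45B*, *ATM*, *ZMAT3*, *POLH*, *CHEK2* and *MDC1*, and they include all 4 members that were above their own control on 6 of 6 arrays. Of all genes above their own control on 6 of 6 arrays, 25.3% had this replicate order. Replicate 2 gave the lowest array of each group in 2 members, *PLK3* and *AEN*, 6.25% beside 9.18% of all genes. Such orders were counted for replicate 2 only, not for the other replicates. Among all genes called higher with the siRNAs, 36.3% had replicate 2 highest in each group, and among those called lower 4.65% did. The lowest order was not counted among called genes. The part of the replicate order in the siRNA differences was not tested.

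The rest of the pathway was read from further lists. Of 23 other p53 targets tested, none was called for both siRNAs together in limma, 5 had an unadjusted p under 0.05, 21.7% beside 19.1% of all genes, and the median was -0.04. The proapoptotic genes *BBC3* and *BAX* had the lowest values and *TP53AIP1*, another gene linked to apoptosis, the highest, and all 3 were chosen for mention after their values were seen. *BBC3* was called lower with siRNA1, at -0.65 (adjusted p = 0.0465 in limma), and stood at -0.17 with siRNA2 (adjusted p = 0.466), and the direct difference between the siRNAs did not pass (0.48, adjusted p = 0.325). It was 11.43, 10.70 and 9.99 in control replicates, 11.01, 9.89 and 9.27 with siRNA1 and 11.36, 10.66 and 9.58 with siRNA2. This was the only call among the 23 with siRNA1, 4.35% beside 0.838% of all genes, and it was not followed through the alternatives. Over all probes, the siRNA1 calls fell from 316 to 3 without the replicate block and to 18 without control replicate 2. *BAX* gave -0.50 for both siRNAs together (adjusted p = 0.154 in limma). *TP53AIP1* stood at 5.86, 5.91 and 5.69 in control replicates, at 6.36, 6.39 and 5.91 with siRNA1 and at 6.49, 6.09 and 5.93 with siRNA2. All its siRNA arrays lay above its control arrays, by a narrow margin, and its difference of 0.37 did not pass (adjusted p = 0.0793 in limma).

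None of the 12 tested genes for p53 family members and regulators, 20 for other damage signalling, 17 for homologous recombination and Fanconi anaemia or 18 for the cell cycle was called for both siRNAs together in limma. Their counts at an unadjusted p under 0.05 were 0, 2, 1 and 2, where 19.1% of all genes were under it, and their medians were -0.07, -0.03, 0.07 and -0.03. The mean level of the 18 cell cycle genes was 12.94 to 13.12 in control arrays, 12.98 with siRNA1 on every array and 12.93 to 13.01 with siRNA2.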

How the data were processed

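The authors deposited the fluorescence intensity of each spot of the 9 arrays, read per the labels with Agilent Feature Extraction 9.1 (10.5.1.1 per the file headers, design build hg19), with flags for spots well above background and for outliers. They also deposited log2 values normalized with VSN, used here as an alternative. VSN's model was refitted with own code to the median spot intensity in 7 iterations at a quantile of 0.9, without outlier spots, and spots of a probe were averaged. Of 57176 probes, 33586 were well above background on at least 3 arrays. Transcript accessions gave symbols for 25729 of all probes through a RefSeq table of GRCh38.p14, and no position was taken from it.

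Groups were compared with limma 3.58.1 in R 4.3.3, in one fit of group plus replicate number over all 9 arrays (4 residual and 5.74 prior degrees of freedom). The numbers come from the labels. Deviations from the group means correlated at 0.31 to 0.75 in the 9 pairs of arrays with the same number and at -0.57 to 0.13 in the 18 other pairs. Deviations sum to 0 within a group, which pushes the other pairs below 0, so this contrast is partly fixed by the centring. Steps were tested on simulated data. All members were named, with every array's value for members called in any comparison, replicates included, and for *CDKN1A*, *MDM2*, *ATM* and *CHEK1*. Those of *TP53I3* were added after they were seen. The members and lists were chosen with earlier results of these data known. Alternatives covered normalization, filter, outlier spots, block, prior variance, probe choice and leaving out arrays. The number of arrays limits the precision. Some single-gene results are not reported here.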

Additional observations from a re-analysis of the deposited data

How the results depend on the processing

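Of 32 members, 28 were called in none of 24 alternative analyses of both siRNAs together, and 18 kept their direction in all of them. Neither count was made over all genes. The count of 1 called member became 0 with VSN on the processed signal, scaling to the 75th percentile, no filter on dim probes, the replicate number as a random block or the slide as a block, 2 with the deposited table, 3 with only probes well above background on all 9 arrays, 4 with normexp and quantile normalization and 4 with a trended robust prior variance. The count over all probes moved as well. It was 915 in the main fit, 152, 298, 91, 645 and 17 in the settings with 0 members, in the order given. With the deposited table it was 868, and in the last 3 settings 1546, 1289 and 1879. The member count was 0 to 2 on leaving out arrays or replicates, 2 without control replicate 3 (1203 probes). With no replicate block it was 0, and *TP53INP1* then had an adjusted p of 0.744 in limma. The *TP53INP1* difference was 0.61 to 0.78 throughout, with adjusted p from 0.00469 to 0.744. *TP53I3* was called in 5 alternatives (lowest adjusted p 0.0285), *ATM* in 3 and *MDM4* in 2.

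For siRNA1 the count of 0 became 3 with normexp, 2 with the 9-array filter and 2 with the trended prior. Over all probes the siRNA1 calls were 316 in the main fit and 486, 594 and 856 in these settings. The siRNA1 member count was 0 to 1 on leaving out arrays, 1 without replicate 3 of control (676 probes) or of siRNA2 (209 probes). For siRNA2 the count of 1 became 0 with the processed signal, the 75th percentile, no filter, no replicate block, a random block, the slide block, only the arrays compared or the mean of all probes, and was 0 to 1 on leaving out arrays. Over all probes the siRNA2 calls were 542 in the main fit and fewer, 4 to 389, in the settings named. Between the siRNAs the member count was 0 throughout. The replicate count of 15 was 11 to 19 under other settings and 6 to 15 on leaving out arrays. Over all probes, 11863 differed between replicates in the main fit, 7079 to 12869 under other settings and 2073 to 12130 on leaving out arrays. *MDM2* turned to 0.039 with the mean of all probes and ranged from -0.157 to 0.019 on leaving out arrays, above 0 without replicate 3. *CHEK1* turned to 0.052 with normexp and ranged from -0.033 to 0.0061 on leaving out arrays, above 0 without replicate 2. *PHF6* stayed between -1.82 and -1.62. The causes were not tested.

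Precision was limited by 3 arrays a group, and 4 members were too dim to compare.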
